A study of Mus musculus with 8 samples.

Results

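The transcription factors PU.1 (Spi1), IRF8 (Irf8), MAF (Maf), the MiT/TFE factors (Mitf, Tfec, Tfeb and Tfe3) and the C/EBP factors alpha and beta (Cebpa and Cebpb) were followed in the skull roof of young mice after blockade of the receptor CSF1R. They are the 9 rows with these symbols among 27133 genes of the count table, and all 9 passed the filter on low counts that left 17028 genes to test. Parietal bone of C57BL6J pups was profiled by poly(A) RNA sequencing in 8 libraries. In 4 of them, isotype 2 to 5, the pups had been given a control isotype antibody. In the other 4, anti-CSF1R 7 to 10, they had been given an antibody that blocks CSF1R and was meant to deplete myeloid cells. Both were injected transcranially on postnatal days 2, 4 and 6, with perfusion and collection on day 9 (the library numbers are those of the sample titles). No transgene or other allele is named for either group, and since the labels do not tie each library to its own pup, p-values here rest on the spread between libraries, which may be technical.

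CSF1R binds CSF1 and IL-34 and carries the survival signal of macrophages and osteoclasts, the cells that resorb bone. PU.1 is an ETS factor needed for the whole myeloid lineage, and it acts with MITF and its relative TFE3, and with NFATc1, on osteoclast genes such as Ctsk, Acp5 and Oscar. IRF8 pairs with PU.1 in monocytes and dendritic cells and restrains osteoclast formation, whereas MAF acts in differentiated macrophages. TFEB and TFE3 are expressed in many tissues and switch on lysosome and autophagy genes, and the C/EBP factors act in granulocyte and monocyte precursors and in fat, with Cebpb also expressed in osteoblasts.

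Total counts were 57.5 M to 69.1 M per library, and expression is given as CPM, counts per M counts with TMM library sizes. Isotype 3 and 4 stood apart from isotype 2 and 5 in a way that followed base composition: across 16005 genes with an annotated transcript, the Spearman correlation between transcript GC content and the log2 difference of isotype 3 and 4 from isotype 2 and 5 was 0.705 (a description across genes, which share these 4 libraries and are not independent). All 9 factors followed it. The 6 whose longest protein-coding transcript held 55.1% to 67.2% GC (Irf8, Tfe3, Spi1, Cebpa, Tfeb and Cebpb) were higher in both isotype 3 and isotype 4 than in either of isotype 2 and 5, as were 37.5% of all tested genes. The 3 at 43.4% to 47.4% GC (Mitf, Tfec and Maf) were lower in both, as were 41.1% of tested genes. The differences ran from 1.18 on the log2 scale for Cebpa to -1.44 for Mitf. The results of the factors are therefore given with all 8 libraries and against isotype 2 and 5 alone, and the part of base composition in the differences between treatments was not tested beyond the fits with an offset for GC content and length. Isotype 2 and 5 were kept for their likeness in these same data, and no label sets isotype 3 and 4 apart. Leaving out the pair that differs can by itself narrow the spread between controls. The SE of Mitf went from 0.36 to 0.10, and the genes called from 144 to 536. Calls and p-values of the fit on isotype 2 and 5 are therefore not those of an independent test.

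**Figure D1:**
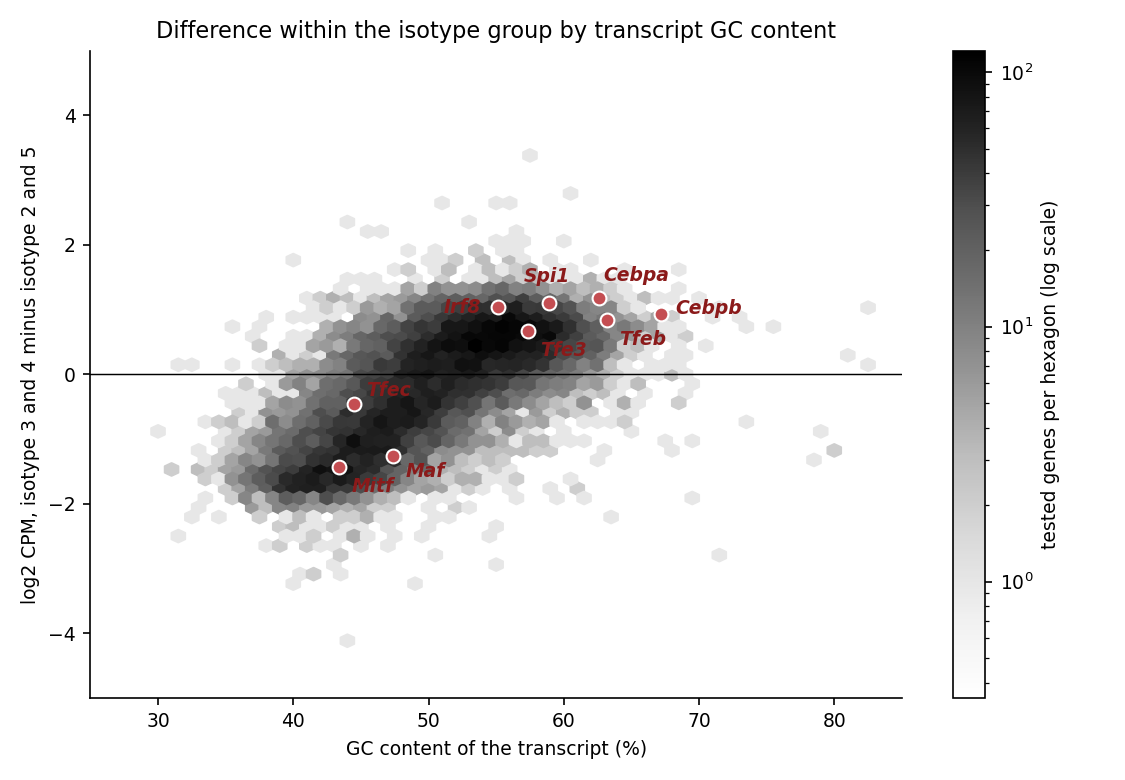
Difference in log2 CPM between isotype 3 and 4 and isotype 2 and 5 (vertical axis) against transcript GC content in percent (horizontal axis); grey hexagons hold all 16005 genes with a GC value and red points are the 9 factors. Spi1, Irf8, Tfeb, Tfe3, Cebpa and Cebpb lie at high GC and above 0, and Mitf, Maf and Tfec lie at lower GC and below 0.

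With all 8 libraries, 1 of the 9 factors, Spi1, was lower after anti-CSF1R at an adjusted p under 0.05 (edgeR's quasi-likelihood test, Benjamini-Hochberg adjustment over 17028 genes) and 0 were higher; 0.822% of all tested genes were lower, 0.0235% were higher and 0.846% were called in either direction. No gene of the table was called without anti-CSF1R 7 or without anti-CSF1R 8 (edgeR; 1903 and 1597 genes had an unadjusted p under 0.05), so each call made with 8 libraries, the targets included, is lost there. Against isotype 2 and 5 alone, 3 of the 9 were lower (Spi1, Tfec and Mitf), where 2.38% of genes were lower and 3.06% were called in either direction. With the GC and length offset on all 8 libraries, 2 of the 9 were called lower (Spi1 and Tfec), beside 2.32% of genes lower and 2.88% called in either direction. The median log2 fold change of the 9 factors was -0.49 beside 0.03 for all genes with 8 libraries, and -0.11 beside 0.0028 against isotype 2 and 5. In 4 of the 9 (Spi1, Tfec, Tfe3 and Cebpa) every anti-CSF1R library lay below every isotype library, which held for 8.34% of tested genes; against isotype 2 and 5 alone this held for 5 of the 9, Mitf being the fifth, and for 12.9% of genes. Irf8, Maf, Tfeb, Tfe3, Cebpa and Cebpb passed in 0 of 18 alternatives, with adjusted p from 0.0953 to 1.

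**Figure D2:**
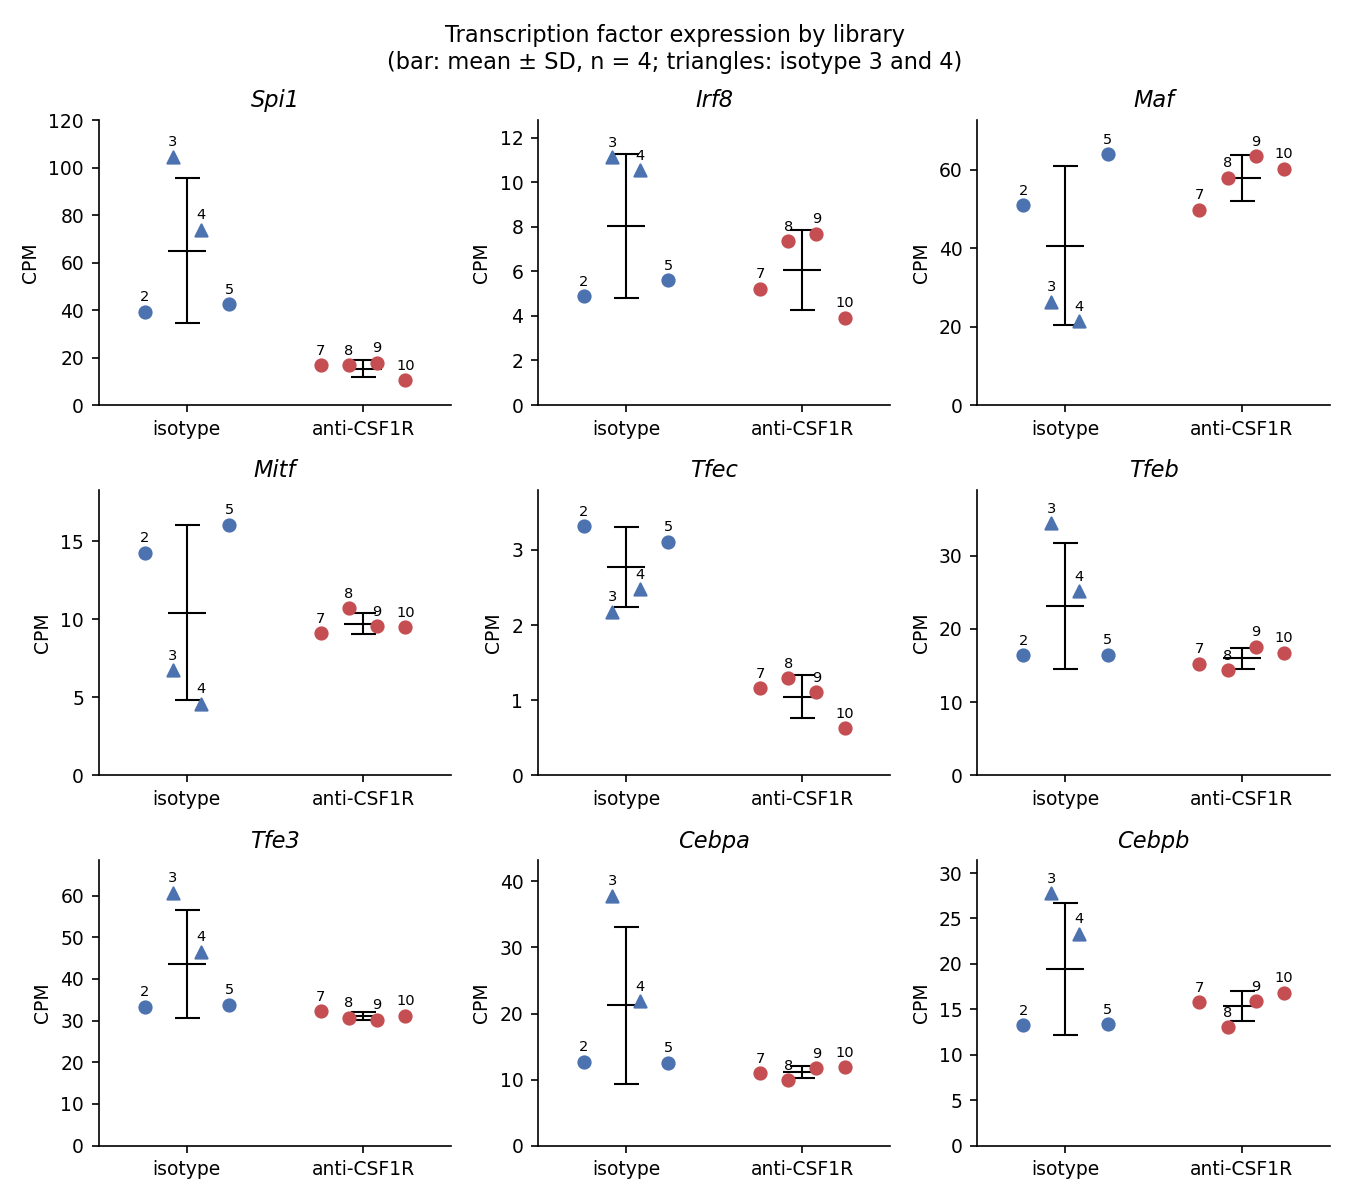
CPM of each factor (vertical axes, from 0) in the 4 isotype libraries (blue, triangles for isotype 3 and 4) and the 4 anti-CSF1R libraries (red), numbered as in the text, with the mean and SD as bars. Spi1 and Tfec are lower in all 4 anti-CSF1R libraries with a clear gap, Mitf after anti-CSF1R lies between isotype 3 and 4 and isotype 2 and 5, and in the other 6 panels the anti-CSF1R values lie near those of isotype 2 and 5.

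Spi1, which encodes PU.1, fell by a factor of 4.22. Its expression in isotype 2, 3, 4 and 5 was 39.3, 105, 73.9 and 42.6 CPM, and in anti-CSF1R 7, 8, 9 and 10 it was 16.8, 16.7, 17.8 and 10.4 CPM. Every anti-CSF1R library was below every isotype library, isotype 3 and 4 were the highest, and anti-CSF1R 10 was the lowest. The means were 65.1 ± 30.6 and 15.4 ± 3.39 CPM (SD, n = 4 each), with a log2 fold change of -2.08 ± 0.34 (SE; 95% interval -2.85 to -1.31; edgeR adjusted p = 0.0318). Against isotype 2 and 5 the change was -1.41 ± 0.20 (edgeR adjusted p = 0.0207), a factor of 2.66, and the GC and length offset on all 8 libraries gave -1.65 ± 0.19 (edgeR adjusted p = 0.00181). The call was kept in 13 of 18 alternative analyses, with adjusted p between 4.17e-07 (DESeq2) and 0.125; it was lost without any single anti-CSF1R library (edgeR adjusted p 0.117 to 0.125) and without isotype 4 (0.0829), while the change stayed between -2.29 and -1.75 when each library was left out in turn. In bulk bone, fewer cells of a type and less RNA per cell cannot be told apart.

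Genes chosen as myeloid targets of PU.1 were called in part. Of 10 tested, 4 were lower and 0 higher, with a median log2 fold change of -1.06. Tyrobp, an adaptor of myeloid surface receptors, went from 86.6 ± 51.0 to 15.9 ± 4.03 CPM (log2 change -2.44, edgeR adjusted p = 0.0328). Cd68, a glycoprotein of macrophage and osteoclast lysosomes, went from 137 ± 57.2 to 31.4 ± 7.47 CPM (-2.13, edgeR adjusted p = 0.0266). The lysosomal membrane gene Laptm5 (-2.16, edgeR adjusted p = 0.0324) and Csf2ra, a subunit of the GM-CSF receptor (-1.21, edgeR adjusted p = 0.0487), were the others. Ptprc, the pan-leukocyte gene of CD45, did not pass in either fit, and its log2 fold change was 0.03 with all 8 libraries (edgeR adjusted p = 0.959) and -0.55 against isotype 2 and 5 (edgeR adjusted p = 0.445). Cybb, a subunit of the phagocyte oxidase, was likewise at 0.37 (edgeR adjusted p = 0.542) and turned to -0.21 (edgeR adjusted p = 0.827). In the fit on isotype 2 and 5, 2 of the 10 passed (Tyrobp at -1.64 and Cd68 at -1.56), with a median of -0.81; Laptm5 was at -1.52 (edgeR adjusted p = 0.0851) and Csf2ra at -1.06 (edgeR adjusted p = 0.0661). With the GC and length offset on all 8 libraries, 6 of the 10 were lower, with a median of -0.90. They were the 4 called without the offset, Itgam (-0.95, edgeR adjusted p = 0.0324) and Cd14 (-1.21, edgeR adjusted p = 0.0216). Ptprc and Cybb did not pass there, at -0.41 and -0.07. Cd68 and Fcgr1 are also on the list of macrophage markers.

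The 3 genes whose profile over the 8 libraries lay closest to Spi1, by the root mean square difference of centred log2 CPM among 12568 genes, were Cd68 (0.088), Ifi30 (0.0885), which encodes a lysosomal thiol reductase of antigen processing, and Laptm5 (0.106). All 3 were called lower with 8 libraries, but they were selected by likeness to Spi1 over these same libraries, so this is no separate result. Among 9 ETS relatives and partners of PU.1 (Spib, Spic, Fli1, Ets2, Elf1, Runx1, Cbfb, Gata1 and Gata2), 0 passed in either direction with all 8 libraries or against isotype 2 and 5, with medians of 0.21 and 0.03. Runx1, which acts upstream of Spi1 in blood formation, stood at 56.3 ± 22.5 and 76.1 ± 7.87 CPM (0.43, edgeR adjusted p = 0.313), with 0.03 against isotype 2 and 5 (edgeR adjusted p = 0.950).

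Irf8, the partner of PU.1 in monocytes and dendritic cells, did not pass the test. Isotype 2 to 5 gave 4.88, 11.1, 10.5 and 5.60 CPM, and anti-CSF1R 7 to 10 gave 5.21, 7.35, 7.69 and 3.91 CPM. The groups overlapped, with isotype 3 and 4 the highest and anti-CSF1R 10 the lowest. The log2 fold change was -0.41 ± 0.33 with all 8 libraries (95% interval -1.16 to 0.34; edgeR adjusted p = 0.389), and it changed sign to 0.20 ± 0.26 against isotype 2 and 5 (-0.40 to 0.81; edgeR adjusted p = 0.796). Of 8 other interferon regulatory factors, 0 passed in either fit; Irf3, which is broadly expressed, stood at 59.3 ± 19.4 and 45.3 ± 1.91 CPM (-0.39, edgeR adjusted p = 0.301), with 0.02 against isotype 2 and 5 (edgeR adjusted p = 0.948). Among the genes closest to Irf8 in profile, selected in the same way, were the class II histocompatibility gene H2-Aa (0.157) and Tifab (0.166), both with adjusted p over 0.3.

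Within a library, Irf8 and Spi1 can be set against each other directly, as totals of the tissue and not per cell. Their ratio was chosen with earlier results of these data known, so its p-value is not that of an independent test. The log2 ratio of Irf8 to Spi1 was -3.0, -3.23, -2.81 and -2.92 in isotype 2 to 5 and -1.68, -1.18, -1.21 and -1.40 in anti-CSF1R 7 to 10. All 4 anti-CSF1R libraries were above all 4 isotype libraries, and isotype 3 and 4 lay on either side of isotype 2 and 5, both genes having transcripts of high GC content. The mean ratio rose by 1.62 on the log2 scale, from -2.99 ± 0.18 to -1.37 ± 0.23 (SD, n = 4 each; exact two-sided permutation test, p = 0.0286, the smallest that 70 assignments can give; 0.0429 adjusted over 3 ratios). Against isotype 2 and 5 the difference was 1.59, where the exact test cannot go below 0.133, and with the GC and length offset it was 1.54 (exact permutation p = 0.0429 adjusted). With a library left out, which allows no p below 0.0571 by exact permutation, it ran from 1.54 to 1.73.

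The MiT/TFE factors are close paralogs that bind the same E-box DNA motif as dimers. Their shared stretch is shown because it tells how far reads could be confused among them. It is the longest block of 17 codons that encodes identical residues in all 4, 51 bases in the basic region that contacts DNA, given 5′ to 3′ from the reference coding sequences (GENCODE M21, GRCm38); capitals mark the 16 positions that differ among the genes, 10 of them at the last base of a codon.
Mitf: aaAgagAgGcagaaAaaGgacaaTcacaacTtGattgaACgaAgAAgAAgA
Tfec: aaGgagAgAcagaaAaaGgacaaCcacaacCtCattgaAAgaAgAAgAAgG
Tfeb: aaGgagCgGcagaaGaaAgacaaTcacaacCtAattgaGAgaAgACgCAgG
Tfe3: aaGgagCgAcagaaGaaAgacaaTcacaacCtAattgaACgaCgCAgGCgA
The block spans exons 7 and 8 of Mitf (chr6:98006164-98010411, plus strand), exons 4 and 5 of Tfec (chr6:16840528-16844228, minus strand), exons 5 and 6 of Tfeb (chr17:47788260-47788925, plus strand) and exons 7 and 8 of Tfe3 (chrX:7770797-7771011, plus strand), in each case coding and with an intron inside the span. Any pair was identical at 40 to 44 of the 51 bases, and the longest exact run shared by the coding sequences of any pair was 14 to 29 bases, under the read length of 101 bp. GC content was 52.9% over the coding sequence of Mitf, 47.6% in Tfec, 60.6% in Tfeb and 58.9% in Tfe3.

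Tfec, a MiT factor known for its expression in macrophages and osteoclasts, had the lowest mean level per length of the 4 in both groups. Its level was 3.32, 2.18, 2.48 and 3.11 CPM across isotype 2 to 5, against 1.16, 1.29, 1.11 and 0.63 CPM across anti-CSF1R 7 to 10, which is 114 to 220 counts and 38 to 98 counts. Every anti-CSF1R library was below every isotype library, and unlike Spi1 it was lower in isotype 3 and 4 than in isotype 2 and 5. The means were 2.77 ± 0.53 and 1.05 ± 0.29 CPM (SD, n = 4 each). The log2 fold change of -1.40 ± 0.26 (95% interval -2.0 to -0.80) missed the threshold with all 8 libraries (edgeR adjusted p = 0.0526). Tfec passed in 7 of 18 alternatives, at -1.61 ± 0.26 against isotype 2 and 5 (edgeR adjusted p = 0.00981) and at -1.68 ± 0.23 under the offset for GC and length (edgeR adjusted p = 0.00468), a factor of 3.05 and 3.21; over all alternatives the adjusted p ran from 1.13e-05 to 0.185. The genes closest to it in profile were Tnfrsf11a (0.110), which encodes the osteoclast receptor RANK, the complement receptor gene C3ar1 (0.142) and Shtn1 (0.147).

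Mitf itself was at 14.3, 6.76, 4.59 and 16.1 CPM across isotype 2 to 5, and the levels in anti-CSF1R 7 to 10 were 9.10, 10.7, 9.58 and 9.51 CPM. The anti-CSF1R values lay between those of isotype 3 and 4, which were the lowest, and those of isotype 2 and 5, which were the highest. With all 8 libraries the log2 fold change was -0.10 ± 0.36 (95% interval -0.92 to 0.72; edgeR adjusted p = 0.851). Against isotype 2 and 5 Mitf was lower by a factor of 1.56, a log2 fold change of -0.64 ± 0.10 (-0.87 to -0.42; edgeR adjusted p = 0.00819), and fitting the GC and length offset to all 8 libraries gave -0.51 ± 0.13 (edgeR adjusted p = 0.0811). It passed in 2 of 18 alternatives, both of them on isotype 2 and 5 alone, which were kept for their likeness in these data. Over all alternatives the adjusted p of Mitf ran from 0.00334 to 0.985. Its sign turned with library size alone (0.01), with limma-voom (0.07) and without isotype 2 (0.07) or isotype 5 (0.19). The tissue total of Mitf includes isoforms from different promoters, which gene counts do not separate.

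Tfeb and Tfe3 regulate lysosome genes and did not pass. For Tfeb, isotype 2 to 5 gave 16.4, 34.4, 25.1 and 16.5 CPM and anti-CSF1R 7 to 10 gave 15.2, 14.3, 17.6 and 16.8 CPM, and the groups overlapped. Its log2 fold change was -0.53 ± 0.25 (edgeR adjusted p = 0.279) and -0.04 ± 0.09 against isotype 2 and 5 (95% interval -0.26 to 0.17; edgeR adjusted p = 0.890). For Tfe3 they gave 33.4, 60.7, 46.6 and 33.8 CPM and 32.2, 30.7, 30.2 and 31.2 CPM in the same order, without overlap but with a small gap to isotype 2 and 5. Its log2 fold change was -0.49 ± 0.21 (edgeR adjusted p = 0.278) and -0.11 ± 0.06 against isotype 2 and 5 (-0.25 to 0.02; edgeR adjusted p = 0.416). For both, the intervals against isotype 2 and 5, controls kept for their likeness, left out falls of the size fitted there for Mitf and Tfec. With all 8 libraries the 95% intervals were wider, -1.09 to 0.03 for Tfeb and -0.95 to -0.02 for Tfe3. These held the -0.64 fitted for Mitf against isotype 2 and 5, and left out the -1.61 fitted there for Tfec. Of the differences between these genes, that of Mitf from Tfe3 was tested, as a ratio, and the others were not tested.

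The ratio of Mitf to Tfe3 was -1.22, -3.16, -3.33 and -1.07 (log2) in isotype 2 to 5 and -1.82, -1.52, -1.66 and -1.71 in anti-CSF1R 7 to 10. It was lowest in isotype 3 and 4 and highest in isotype 2 and 5, with the anti-CSF1R libraries in between. The mean difference was 0.52 (exact two-sided permutation p = 0.429), and it turned to -0.53 against isotype 2 and 5 (exact permutation p = 0.133, the smallest possible there) and to -0.31 with the GC and length offset (exact permutation p = 0.143 adjusted). Tfeb and Tfe3 were the most alike pair among the 9 factors (root mean square difference 0.114), and Spi1 and Maf the least alike (1.58). The genes nearest to Tfe3 were Saraf (0.0235), Arpc1b (0.0263) and Rnf114 (0.0265), and those nearest to Tfeb were Isoc2a (0.0584), Nosip (0.0626) and Csnk1g2 (0.0672); Mitf was nearest to Reps2 (0.117), Deptor (0.121) and Cav2 (0.156).

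**Figure D3:**
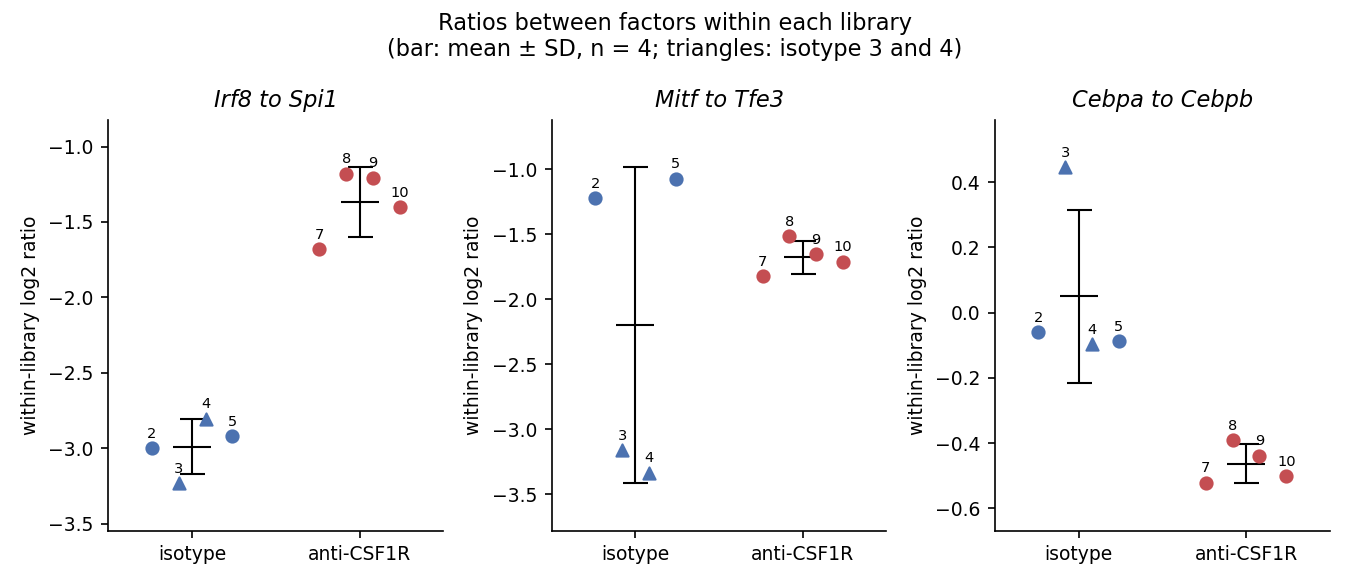
Within-library log2 ratio (vertical axes) of Irf8 to Spi1, Mitf to Tfe3 and Cebpa to Cebpb in the 4 isotype libraries (blue, triangles for isotype 3 and 4) and the 4 anti-CSF1R libraries (red), with mean and SD as bars. The ratio of Irf8 to Spi1 is higher in all 4 anti-CSF1R libraries, that of Cebpa to Cebpb is lower in all 4, and that of Mitf to Tfe3 lies between the 2 pairs of isotype libraries.

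Genes upstream of the MiT/TFE proteins, which act on their phosphorylation and place in the cell, were not called: of 13 tested (folliculin and its partners, Rag GTPases, mTOR complex and TSC genes, calcineurin and a 14-3-3 gene), 0 passed in either direction, with medians of 0.05 and 0.0042 against isotype 2 and 5. The calcineurin gene Ppp3ca was at 0.57 (edgeR adjusted p = 0.324) and at 0.0042 against isotype 2 and 5 (edgeR adjusted p = 0.990).

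Osteoclast genes that PU.1 and MITF act on were the group with the most calls among the target lists. Of 14, 7 were lower and 0 higher with all 8 libraries (median -1.58), and 13 of 14 were lower against isotype 2 and 5 (median -1.38), Dcstamp being the one that was not (edgeR adjusted p = 0.0589). Csf1r, the receptor the antibody blocks, went from 361 ± 152 to 57.0 ± 11.8 CPM (log2 change -2.66, edgeR adjusted p = 0.0156). Oscar, a costimulatory receptor of osteoclasts, went from 44 ± 8.45 to 7.17 ± 1.72 CPM (-2.62, edgeR adjusted p = 0.00584), and Ctsk, the collagenase cathepsin K, from 2584 ± 705 to 797 ± 119 CPM (-1.70, edgeR adjusted p = 0.0198). Dcstamp, needed for the fusion of osteoclast precursors, went from 40.9 ± 12.3 to 11 ± 3.28 CPM (-1.89, edgeR adjusted p = 0.0267). The log2 fold changes of these 4 against isotype 2 and 5 were -2.06 for Csf1r, -2.36 for Oscar, -1.31 for Ctsk and -1.46 for Dcstamp. Of the 14 genes, 7 are also osteoclast markers.

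Other transcription regulators of osteoclasts were called in part. Of 12 tested, 3 were lower and 0 higher with all 8 libraries: Nfatc1, the master regulator of osteoclast differentiation, went from 162 ± 14.0 to 85.9 ± 5.87 CPM (log2 change -0.91, edgeR adjusted p = 0.0231), the AP-1 gene Fosl2 from 133 ± 19.0 to 73.5 ± 1.38 CPM (-0.86, edgeR adjusted p = 0.0307) and Jdp2, an AP-1 dimerization partner, from 104 ± 33.0 to 42.7 ± 5.36 CPM (-1.28, edgeR adjusted p = 0.0436). With isotype 2 and 5 alone, 5 of the 12 were lower, these 3 (-0.84, -0.79 and -0.88 in the same order) with Prdm1 (-1.34, edgeR adjusted p = 0.000181), whose product BLIMP1 represses Irf8 and Bcl6, restrainers of osteoclast formation, and Nfkb2 (-0.28, edgeR adjusted p = 0.0310). Bcl6, Rela, Relb, Nfkb1, Jun, Fos and Fosl1 did not pass in either fit. The median of the list was -0.32 with 8 libraries and -0.19 against isotype 2 and 5. Over the 18 alternatives the adjusted p of Nfatc1, Fosl2 and Jdp2 reached 0.117, 0.138 and 0.175, and that of Prdm1 ran from 3.29e-05 to 0.428.

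Of 18 lysosome and autophagy genes chosen as targets of TFEB and TFE3, 1 was lower and 0 were higher with all 8 libraries. When isotype 2 and 5 alone were the controls, 8 of 18 were lower and 0 higher, and the median moved from -0.70 to -0.31. Among those 8 were the lysosome genes Hexa (-0.81, edgeR adjusted p = 0.000893), Ctsa, Ctsb, Naglu and Cln3, and Atp6v1h (-0.55, edgeR adjusted p = 0.00198), a subunit of the proton pump. Lamp1, the abundant lysosome membrane protein, was at -0.44 with all 8 libraries (edgeR adjusted p = 0.282) and at -0.04 against isotype 2 and 5 (edgeR adjusted p = 0.852), and the autophagy genes Uvrag, Sqstm1 and Map1lc3b did not pass in either fit.

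**Figure D4:**
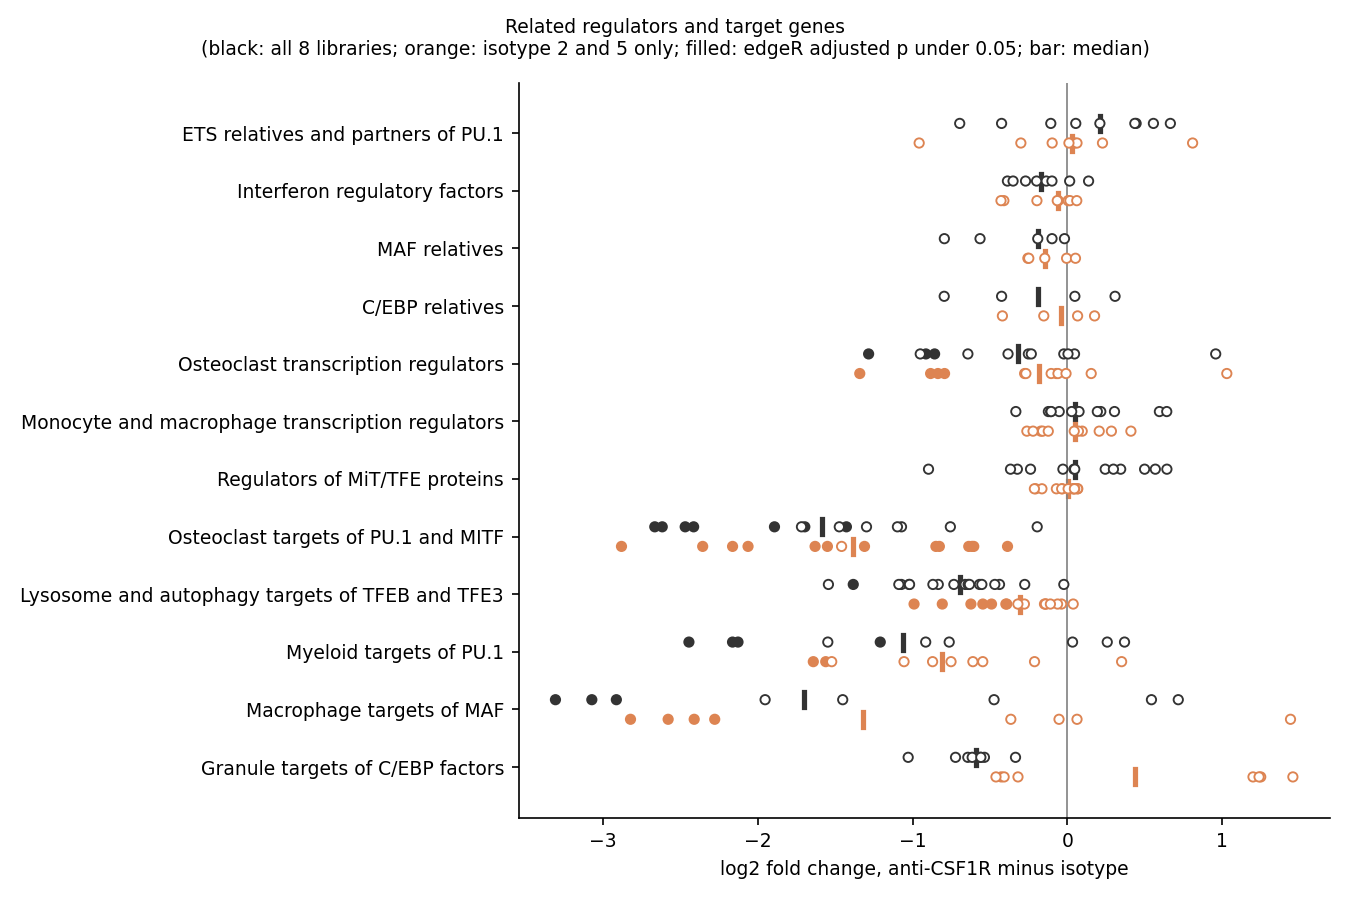
Log2 fold change of each gene, anti-CSF1R minus isotype (horizontal axis), for 12 lists of related regulators and targets, with all 8 libraries (black) and with isotype 2 and 5 only (orange); filled points passed an edgeR adjusted p of 0.05 and vertical bars are list medians. Filled points lie to the left of 0, and most are osteoclast, lysosome, PU.1 or MAF target genes.

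The sequences around the start sites of some of these targets are shown because they hold the letters that the factors are known to bind. In the 250 bases upstream of RefSeq start sites (GRCm38.p6), searched on both strands, the E-box CACGTG stood in 6 of 13 lysosome targets present in the table (Cln3, Ctsa, Ctsd, Lamp1, Mcoln1 and Naglu) and in 6.86% of all 27025 genes. The longer form TCACGTGA, which contains it, stood in 4 of 13 and in 0.907% of all genes. The variant TCATGTG stood in 2 of 9 osteoclast targets (Acp5 and Clcn7) and in 3.72% of all genes. The PU.1-type ETS site GAGGAAG stood in 3 of 9 osteoclast targets (Ctsk, Oscar and Src), in 5 of 8 myeloid targets (Csf2ra, Csf3r, Fcgr1, Itgam and Laptm5) and in 12% of all genes. Of the 9 factors, 7 were in the promoter table, and 0 of those 7 held any of these motifs in the window. Examples of 30 bases are given 5′ to 3′ on the strand of the gene, with the match, on either strand, in capitals.
Mcoln1: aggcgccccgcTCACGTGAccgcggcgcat
Ctsd: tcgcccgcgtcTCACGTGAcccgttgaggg
Ctsa: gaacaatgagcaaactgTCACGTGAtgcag
Acp5: agtccagtgctCACATGAcccaaggggagg
Ctsk: aaatgtgtgtcCTTCCTCcctaacccctcc
Oscar: tttccatttttCTTCCTCccacctgcccct
Laptm5: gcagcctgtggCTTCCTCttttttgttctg
They lie at chr8:3500462-3500491 (plus strand) for Mcoln1, chr7:142387908-142387937 (minus) for Ctsd, chr2:164833743-164833772 (plus) for Ctsa, chr9:22130670-22130699 (minus) for Acp5, chr3:95499140-95499169 (plus) for Ctsk, chr7:3616377-3616406 (minus) for Oscar and chr4:130913266-130913295 (plus) for Laptm5, each upstream of the annotated start. A match describes the letters in the window and not binding. Of the 4 lysosome targets with TCACGTGA, 2 passed against isotype 2 and 5, Ctsa at -0.49 (edgeR adjusted p = 0.00504) and Cln3 at -0.40 (edgeR adjusted p = 0.0268). The others were Ctsd at -0.31 (edgeR adjusted p = 0.0584) and Mcoln1, a lysosomal calcium channel, at -0.14 (edgeR adjusted p = 0.332), and the genes were not tested against each other. Over all alternatives the adjusted p ran from 0.00462 to 0.387 for Ctsa, from 0.0197 to 0.443 for Cln3, from 0.0489 to 0.467 for Ctsd and from 0.127 to 0.848 for Mcoln1.

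The macrophage factor Maf measured 51.0, 26.3, 21.3 and 64.0 CPM across isotype 2 to 5, with 49.8, 58.0, 63.5 and 60.3 CPM for anti-CSF1R 7 to 10. Isotype 3 and 4 were the lowest of the 8 libraries, and the anti-CSF1R values lay around those of isotype 2 and 5. The log2 fold change was 0.51 ± 0.33 with all 8 libraries (95% interval -0.23 to 1.25; edgeR adjusted p = 0.322), 0.24 ± 0.17 under the offset for GC and length (edgeR adjusted p = 0.372) and 0.01 ± 0.12 against isotype 2 and 5 (-0.26 to 0.27; edgeR adjusted p = 0.989). Of the 5 MAF relatives tested, 0 passed in either fit. Maf is also expressed outside the myeloid lineage. Its nearest profiles were Spata1 (0.0589), Man1a (0.0640) and Rad50 (0.0667).

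Of 8 genes that MAF acts on in macrophages, 3 were lower and 0 higher with all 8 libraries, the complement genes C1qa, C1qb and C1qc. C1qc went from 31.6 ± 10.9 to 3.18 ± 1.45 CPM (log2 change -3.31, edgeR adjusted p = 0.0156) and C1qa from 35 ± 15.9 to 4.16 ± 1.86 CPM (-3.07, edgeR adjusted p = 0.0213). With isotype 2 and 5 as the controls, 4 of 8 were lower, Mrc1 being added (C1qc at -2.82 and C1qa at -2.41), and 5 of the 8 genes are also macrophage markers. Cd163, Il10, Hmox1 and Cd5l passed in neither fit, at 0.54, 0.72, -0.47 and -1.45 with all 8 libraries. Against isotype 2 and 5 they were at 0.06, 1.44, -0.05 and -0.37.

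Cebpa, a factor of myeloid precursors and adipocytes, measured 12.7, 37.9, 21.8 and 12.6 CPM across isotype 2 to 5, with 11, 9.94, 11.7 and 11.9 CPM for anti-CSF1R 7 to 10. The groups did not overlap, although the gap to isotype 2 and 5 was small beside the height of isotype 3. The log2 fold change of -0.93 ± 0.34 missed the threshold (95% interval -1.70 to -0.16; edgeR adjusted p = 0.277), was -0.54 ± 0.20 under the offset for GC and length (edgeR adjusted p = 0.165) and was -0.19 ± 0.10 against isotype 2 and 5 (-0.41 to 0.03; edgeR adjusted p = 0.426). For Cebpb, isotype 2 to 5 gave 13.2, 27.8, 23.3 and 13.4 CPM and anti-CSF1R 7 to 10 gave 15.8, 13, 15.9 and 16.8 CPM, with overlap. Its log2 fold change was -0.34 ± 0.26 (edgeR adjusted p = 0.371) with all 8 libraries and turned to 0.06 ± 0.13 with the offset (edgeR adjusted p = 0.797) and to 0.21 ± 0.11 against isotype 2 and 5 (edgeR adjusted p = 0.420).

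The ratio of Cebpa to Cebpb over the whole tissue was tested. It was chosen with earlier results of these data known, so its p-value is not that of an independent test. In bulk bone, a shift in the mix of cells and a shift within cells cannot be told apart in this ratio. The log2 ratio of Cebpa to Cebpb was -0.06, 0.45, -0.10 and -0.09 in isotype 2 to 5 and -0.52, -0.39, -0.44 and -0.50 in anti-CSF1R 7 to 10. All 4 anti-CSF1R libraries were below all 4 isotype libraries, and isotype 3 stood above the other isotype libraries. The mean went from 0.05 ± 0.26 to -0.46 ± 0.06 (SD, n = 4 each), a difference of -0.51 (exact two-sided permutation p = 0.0286; 0.0429 adjusted over 3 ratios). It was -0.56 with the GC and length offset (exact permutation p = 0.0429 adjusted), -0.39 against isotype 2 and 5 (smallest possible exact p of 0.133), and between -0.56 and -0.38 with each library left out.

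Among 4 other C/EBP genes (Cebpd, Cebpe, Cebpg and Ddit3), 0 passed in either fit; Cebpd stood at 19.7 ± 8.89 and 14.6 ± 1.35 CPM (-0.43, edgeR adjusted p = 0.335), with 0.17 against isotype 2 and 5 (edgeR adjusted p = 0.520). Of 8 granule genes that C/EBP factors act on in neutrophil precursors, 0 passed in either fit, and the list median changed sign, from -0.59 with 8 libraries to 0.44 against isotype 2 and 5. The genes nearest to Cebpa in profile were Lamtor1 (0.0671), S100a10 (0.0689) and Slc39a1 (0.0751), and those nearest to Cebpb were Dnajc30 (0.0784), Sbk1 (0.0833) and Bcar1 (0.0838).

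**Figure D5:**
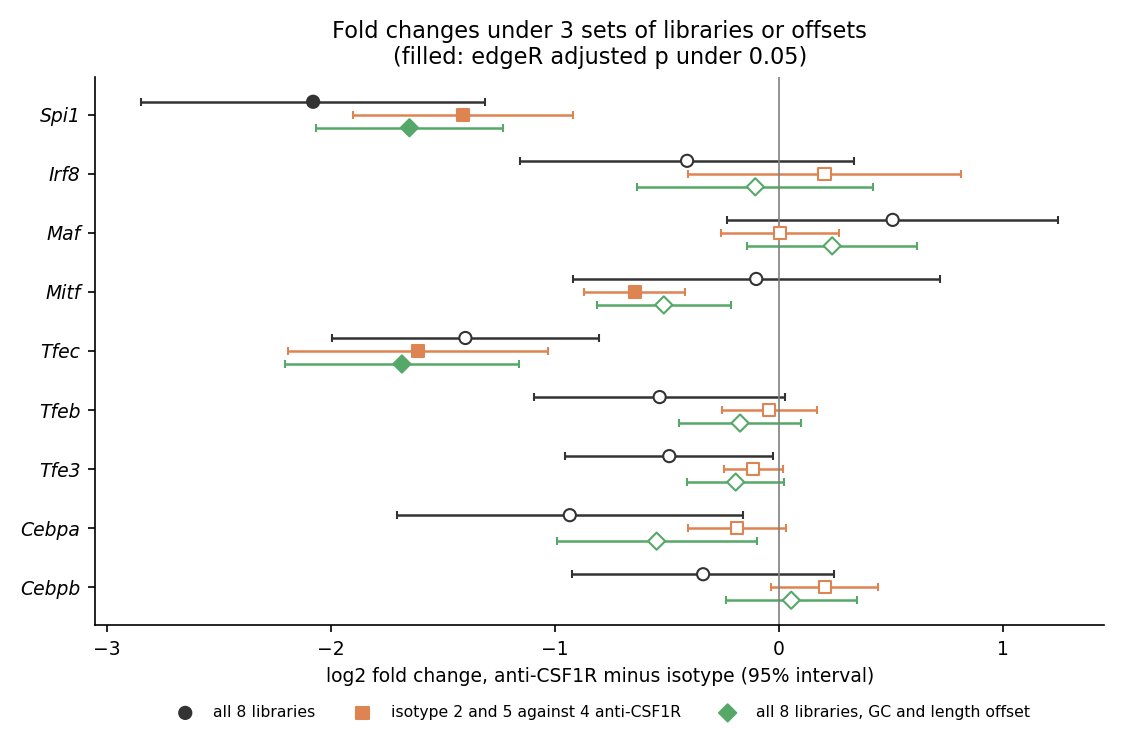
Log2 fold change of the 9 factors, anti-CSF1R minus isotype, with 95% intervals (horizontal axis), from all 8 libraries (black circles), from isotype 2 and 5 against the 4 anti-CSF1R libraries (orange squares) and from all 8 libraries with a GC and length offset (green diamonds); filled symbols passed an edgeR adjusted p of 0.05. Spi1 is filled in all 3, Tfec in the last 2, Mitf with isotype 2 and 5 only, and Irf8 and Cebpb change sign between fits.

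Levels can be ordered across the factors only per length. On CPM per kilobase of the transcript, Spi1 ranked highest in 4 of 4 isotype libraries (20.1 as the mean of isotype 2 and 5) and in 0 of 4 anti-CSF1R libraries (mean 7.58), where it ranked between the third and the fifth. In the anti-CSF1R group the mean order was Cebpb (10.2 ± 1.08), Tfe3 (9.17 ± 0.25), Maf (9.10 ± 0.92), Spi1 (7.58 ± 1.67), Tfeb (6.83 ± 0.62), Cebpa (4.24 ± 0.34), Irf8 (2.12 ± 0.63), Mitf (1.99 ± 0.14) and Tfec (0.59 ± 0.16; SD, n = 4 each). In that order the first 3 overlapped each other in their libraries, as did Spi1 with Maf and Tfeb, and Irf8 with Mitf, while Cebpa and Tfec did not overlap their neighbours. In isotype 2 and 5 the means after Spi1 were Tfe3 9.91, Maf 9.04, Cebpb 8.85, Tfeb 7.02, Cebpa 4.81, Mitf 3.11, Irf8 1.84 and Tfec 1.80. Tfec was the lowest of the 9 in 4 of 4 anti-CSF1R libraries and in 2 of 4 isotype libraries.

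Cell type markers give the setting for these values. The summed level of 10 macrophage markers was 331 to 451 CPM in the isotype and 180 to 212 CPM in the anti-CSF1R libraries, with 6 of 10 lower (Adgre1, the gene of F4/80, from 15.7 ± 2.76 to 3.94 ± 1.21 CPM; edgeR adjusted p = 0.0173) and 7 of 10 lower against isotype 2 and 5. Mertk, Cd163 and Fcgr1 passed in neither fit. Their log2 fold changes were 0.54, 0.54 and -0.92 with all 8 libraries and 0.08, 0.06 and -0.61 against isotype 2 and 5. Mertk and Cd163, with anti-CSF1R means of 96.4 and 41.7 CPM, made up most of the macrophage sum in that group. The summed level of 9 osteoclast markers was 5579 to 13258 and 2044 to 2791 CPM, with 7 of 9 lower and 8 of 9 against isotype 2 and 5. Acp5, Ctsk and Mmp9 made up most of this sum. Monocyte markers gave 0 of 8 calls, with median log2 fold changes of 0.14 with all 8 libraries and 0.34 against isotype 2 and 5. With all 8 libraries, Ms4a4c was at 1.33 (means of 0.25 and 0.64 CPM, edgeR adjusted p = 0.131), Ccr2 at 1.01 (edgeR adjusted p = 0.278) and Spn at -0.53. Against isotype 2 and 5 they were at 1.04 (edgeR adjusted p = 0.237), 0.51 (edgeR adjusted p = 0.405) and 0.17. Ly6c2 and Plac8 went from 0.02 and 0.0087 with all 8 libraries to 0.99 and 0.72 against isotype 2 and 5. F13a1 and Chil3 went from 0.17 and 0.48 to -0.16 and -0.15, and Fn1 was at 0.12 in both fits. Neutrophil markers gave 0 of 10 calls, B cell markers 0 of 8 (68.7 to 80.5 and 69.6 to 90.7 CPM), mast cell and basophil markers 0 of 7 and dendritic cell markers 1 of 8 (Itgax, which macrophages also express). T cell markers gave 1 of 3 (Trac), and their 5 other genes were too low to test. Against isotype 2 and 5 the counts of these 6 lists were the same. The macrophage and osteoclast sums, like Spi1 and Tfec, were lower in every anti-CSF1R library than in every isotype library; the part of cell numbers in the values of the factors was not tested.

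Markers of the remaining cell types concern the factors that are expressed outside the myeloid lineage. Of 8 osteoblast markers 0 passed (sum 169712 to 298255 and 148754 to 180147 CPM), as did 0 of 7 chondrocyte, 0 of 6 endothelial, 0 of 5 skeletal muscle, 0 of 3 adipocyte and 0 of 2 melanocyte markers with all 8 libraries. Col1a1 and Col1a2 made up most of the osteoblast sum, with isotype means of 121489 and 110517 CPM and anti-CSF1R means of 83995.9 and 79087.5 CPM. Against isotype 2 and 5 the endothelial list gave 1 call, Emcn, which was higher (0.34, edgeR adjusted p = 0.0269; 0.77 with all 8 libraries, edgeR adjusted p = 0.274), and the other 5 lists gave 0. Chondrocyte sums were 430 to 2934 and 146 to 453 CPM. Muscle sums were 4.13 to 59.5 and 3.81 to 4.67 CPM, so some isotype libraries held more of each. Isotype 2 and 5 themselves differed in both. Col2a1 was at 210 CPM in isotype 2 and 1951 CPM in isotype 5, and the muscle gene Acta1 at 10.9 and 0.17 CPM. For Mitf, the melanocyte genes Dct, Tyrp1, Tyr, Mlana and Slc45a2 were too low to test, while Pmel stood at 44.9 ± 4.65 and 43.7 ± 1.89 CPM (-0.04 with all 8 libraries and 0.08 against isotype 2 and 5, edgeR adjusted p = 0.644). For Cebpa, Adipoq was at 0.751 ± 0.877 and 0.738 ± 0.278 CPM (1.44 against isotype 2 and 5, edgeR adjusted p = 0.163), with its highest value in isotype 3, which was also the highest library for Cebpa. Isotype 3 was likewise the highest library for Spi1, Irf8, Tfeb, Tfe3 and Cebpb, and a link between Adipoq and Cebpa was not tested. Of 12 other monocyte and macrophage regulators (such as Klf4, Zeb2, Nr4a1 and Id2), 0 passed in either fit, with medians of 0.05 and 0.05.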

How the data were processed

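Poly(A) RNA of parietal bone was measured in 4 isotype and 4 anti-CSF1R libraries. The deposited values are raw counts per gene symbol. The submitters' processing notes name STAR 2.7.10b, featureCounts 1.6.3 and the builds GRCm38 and GRCm39, with no role for either build; for annotation and strand setting the sources used here give nothing, and printed coordinates are those of the reference tables. Between 82.8% and 84.7% of counts from 1 to 10 were even, as when both mates are counted, which makes counting noise larger than the totals alone would give. A floor of 3 counts is 0.0396 to 0.0573 CPM and covers counting error only. Tests used edgeR 4.0.16 in R 4.3.3 (filterByExpr, TMM, robust quasi-likelihood, Benjamini-Hochberg, threshold 0.05). They were tried on simulated data with a cap on the spread between libraries and without the GC-linked difference of isotype 3 and 4. That trial therefore does not show how the tests behave on these libraries. CPM use TMM library sizes. Ratios used exact permutation over libraries (prior count 2). GC content and length came from the longest protein-coding GENCODE M21 transcript, which 94.0% of tested genes matched; the offset used splines of 5 degrees of freedom. Named genes were Csf1r, the 9 factors, their 3 nearest profiles (mean log2 CPM of at least 1) and, per list, up to 4 called members by p or 2 by CPM; other list genes were named after their values were seen, and some named genes are not reported here. Promoters are from RefSeq (GRCm38.p6). The 9 factors, the 26 lists, the ratios and the 18 alternatives were chosen with earlier results of these data known.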

Additional observations from a re-analysis of the deposited data

Results flagged for a closer look

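In groups of 4 libraries, 7 values among 132 groups examined stood far from the rest by Dixon's gap test. Chance alone gives about 1 in 20 groups, so the number of flags was near the chance rate. Spi1 was lowest in anti-CSF1R 10, at 10.4 CPM, with the next library at 16.7 and the highest at 17.8. The same library was lowest for Csf1r (39.4 CPM, next 61.4), Laptm5 (19.2 CPM, next 37.2), the macrophage gene Ms4a7 (0.594 CPM, next 1.33) and Siglec15, an osteoclast surface lectin (4.89 CPM, next 7.49). The flags in anti-CSF1R 10 share that library and are not independent of each other. Without anti-CSF1R 10, the log2 fold change of Spi1 was -1.93. The log2 ratio of Cebpa to Cebpb was highest in isotype 3, at 0.45, with the next library at -0.06. Adipoq was highest in the same library, at 2.06 CPM, with the next at 0.396.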

How the results depend on the processing

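No paired analysis was possible because the groups share no replicate numbers. The 18 alternatives called from 0 to 777 genes, beside 144: DESeq2 gave 777, the GC and length offset 490, isotype 2 and 5 only 536, and both together 611 (added after seeing the data). Leaving out single libraries gave 0 to 260, with 0 without anti-CSF1R 7 or 8 (edgeR; 1903 and 1597 genes at an unadjusted p under 0.05), 4 without 9, 14 without 10, 35 without isotype 4, 234 without isotype 5 and 260 without isotype 2. Of the 9 factors, 2 were called with RLE factors, DESeq2, limma-voom, counts halved or the offset, 3 with isotype 2 and 5 only, with or without the offset, and 0 to 1 with a library left out. Library size alone moved the median of all genes from 0.03 to 0.19 and called 98 genes, and Mitf stood at 0.0136 there and at 0.0689 with limma-voom. Mitf ran from -0.35 to 0.19 with libraries left out. Cebpb turned to 0.0560 with the offset, 0.21 with isotype 2 and 5 and 0.25 with both, and Irf8 to 0.20 and 0.24 with isotype 2 and 5, without and with the offset. The ratio of Mitf to Tfe3 turned to -0.53 with isotype 2 and 5 and to -0.31 with the offset. The ratios of Irf8 to Spi1 and of Cebpa to Cebpb were 1.59 and -0.39 with isotype 2 and 5, and 1.54 to 1.73 and -0.56 to -0.38 with libraries left out, where the number of assignments allows no adjusted p under the threshold. Log2 fold changes of Spi1, Tfec, Maf, Tfeb, Tfe3 and Cebpa kept their sign in all 18 alternatives. Cause was not tested for any of these changes.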
